A study of Drosophila melanogaster with 12 samples.

Results

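The transposon tables of this series hold 5 entries for ribosomal RNA (rRNA) repeats and for the retrotransposons of the R1 and R2 type, among 215 repeat elements in all. They were chosen by a rule on their names, with earlier results of these data known. One, 5S_DM, is the single entry of class RNA, and 4 are long interspersed elements (LINEs) whose names begin with R1 or R2, namely R1_DM, R1-2_DM, R2_DM and R2B_DM. Of these, 4 had a mean of at least 10 reads over the libraries and were tested, together with 203 elements in all, whereas R2B_DM, with a mean of 5.63 reads, was not tested.

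Chromatin of Drosophila melanogaster ovaries was immunoprecipitated for H3K23ac, the form of histone H3 with an acetyl group on lysine 23, and for H3 itself, and was sequenced (ChIP-seq). In enok_KD ovaries the transgene P{TRiP.HMS02634}attP2 was expressed against enok, which encodes the acetyltransferase that places H3K23ac, and in the control GFP_KD ovaries P{VALIUM20-EGFP.shRNA.1}attP2 was expressed against GFP. Both groups carried tj-GAL4, which is active in somatic cells of the ovary, together with the nos driver MVD1 (GAL4::VP16-nos.UTR in CG6325), which is active in the germline. Females were 2 to 3 days old. The study's methods describe RNAi at 29 °C for 2 to 3 days, for the driver set MTD-Gal4. Wet yeast was given there for 1 to 2 days before dissection. The paper does not state separately whether this also held for tj-GAL4 with MVD1. Each replicate was made from the pooled ovaries of many females, so that germline and somatic chromatin were mixed and fewer cells of a type cannot be told apart from less signal per cell. Each of the 4 groups (H3K23ac and H3 in enok_KD and in GFP_KD) had 2 libraries, while 4 libraries of input chromatin were not used here, so H3 per DNA copy and the number of copies cannot be told apart. The files hold no measurement of enok itself, so the knockdown was not checked here.

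In flies the 18S and 28S rRNAs are transcribed as one precursor by RNA polymerase I from tandem units on the X and Y chromosomes. R1 and R2 are non-LTR retrotransposons whose endonucleases cut at fixed sites in the 28S gene, and a unit that carries an insertion is usually transcribed poorly. R2 is found in rDNA almost alone, while copies of R1 are also found in tandem arrays elsewhere in heterochromatin. The 5S rRNA genes form a separate tandem array on chromosome arm 2R and are transcribed by RNA polymerase III. The RefSeq annotation of Release 6 names 96 genes 5SrRNA and 4 pseudogenes 5SrRNA-Psi on 2R, and 10 pseudogenes 28SrRNA-Psi on X.

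Reads were kept by the authors only when they matched one place in the dm3 genome without a mismatch. Identical copies of a rRNA repeat or of R1 and R2 were therefore not counted, and the values below describe the copies, or parts of copies, that differ from all others. NTS_DM, the entry for the spacer between rRNA units, had 0 reads in all 8 libraries, and no entry carries the name of 18S or 28S rRNA.

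The libraries held 199303 to 370429 H3K23ac reads and 411139 to 628808 H3 reads over all elements. The replicates differed more in enok_KD than in GFP_KD. A chi-square comparison of the counts of both replicates, divided by its degrees of freedom, gave 38.7 for H3K23ac and 49.6 for H3 in enok_KD, as compared with 2.72 and 5.52 in GFP_KD. At the 4 tested entries, enok_KD replicate 1 was above replicate 2 for both antibodies, by 0.48 to 1.35 on the log2 scale for H3K23ac and by 0.32 to 0.64 for H3. The median distance between these replicates over all tested elements was 0.35 for H3K23ac and 0.30 for H3. With 2 replicates a group, an exact two-sided permutation test of a single element cannot go below p = 0.333, so each p-value below rests on spread shared across the 203 elements. Nothing states that replicates came from separate crosses.

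The first question was how much H3K23ac these loci carry per H3. The ratio is given on the log2 scale, and 0 is the typical element of the table after normalisation, so a value is relative to other repeats and is not an absolute level. Each mean ± SD joins H3K23ac and H3 libraries of the same number. These are not known to be pairs, so the SD can understate the spread. In GFP_KD ovaries 5S_DM was higher and R1_DM, R1-2_DM and R2_DM were lower than that typical element. In enok_KD ovaries 5S_DM was again higher and R1_DM and R1-2_DM again lower, whereas R2_DM did not pass the test.

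The 5S_DM entry, for the RNA of the large ribosomal subunit that has its own genes, had 3001 and 3322 H3K23ac reads and 1450 and 1147 H3 reads in enok_KD. In GFP_KD it had 3398 and 2835 H3K23ac reads and 1942 and 2613 H3 reads. H3K23ac reads outnumbered H3 reads in each knockdown, although the H3 libraries were the larger ones. The log2 ratio was 2.15 ± 0.11 in enok_KD and 1.36 ± 0.084 in GFP_KD (mean ± SD, n = 2 each). By this mean 5S_DM ranked number 2 from the top of the 203 elements in enok_KD and number 17 in GFP_KD. The fitted log2 ratio of H3K23ac to H3 was 2.16 ± 0.20 in enok_KD (SE, edgeR adjusted p = 5.91e-05) and 1.36 ± 0.19 in GFP_KD (edgeR adjusted p = 0.00029).

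R1_DM, the main R1 element, stood at the other end. It had 3615 and 3305 H3K23ac reads and 40774 and 29477 H3 reads in enok_KD. In GFP_KD it had 4639 and 3517 H3K23ac reads and 33005 and 40165 H3 reads. Its log2 ratio was −2.47 ± 0.22 in enok_KD and −2.27 ± 0.079 in GFP_KD (mean ± SD, n = 2 each), which was number 3 and number 4 from the bottom of the 203 elements. The fitted log2 ratios were −2.44 ± 0.25 in enok_KD (edgeR adjusted p = 0.000119) and −2.27 ± 0.25 in GFP_KD (edgeR adjusted p = 0.000104).

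R1-2_DM, which the tables place in the R1 family, was as low. It had 76 and 46 H3K23ac reads and 591 and 375 H3 reads in enok_KD, as compared with 85 and 63 H3K23ac reads and 697 and 828 H3 reads in GFP_KD. The log2 ratio was −2.12 ± 0.50 in enok_KD and −2.47 ± 0.076 in GFP_KD (mean ± SD, n = 2 each). In enok_KD its normalised H3K23ac in replicate 1 was 1.35 above that in replicate 2 on the log2 scale. The fitted log2 ratios were −2.08 ± 0.36 in enok_KD (edgeR adjusted p = 0.00117) and −2.47 ± 0.35 in GFP_KD (edgeR adjusted p = 0.000315).

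R2_DM, the R2 element, differed from the R1 entries. It had 1119 and 1228 H3K23ac reads and 2804 and 2016 H3 reads in enok_KD. In GFP_KD it had 1007 and 716 H3K23ac reads and 3571 and 4392 H3 reads. Its log2 ratio was −0.16 ± 0.023 in enok_KD, close to the typical element, and −1.32 ± 0.16 in GFP_KD (mean ± SD, n = 2 each). Over every joining of libraries the ratio of R2_DM in enok_KD ran from −0.64 to 0.32, far wider than this SD. Its place from the bottom of the 203 elements was number 82 in enok_KD and number 21 in GFP_KD. The fitted log2 ratios were −0.16 ± 0.20 in enok_KD (edgeR adjusted p = 0.515) and −1.32 ± 0.21 in GFP_KD (edgeR adjusted p = 0.000503). The value in enok_KD turned to 0.59 and passed the test as higher (edgeR adjusted p = 0.0167) when library factors were taken from the piRNA cluster table, and it turned to 0.078 and 0.076 without the first H3 or the second H3K23ac library of enok_KD.

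Of the 4 tested entries, 1 was called higher and 2 lower in enok_KD, and 1 higher and 3 lower in GFP_KD. Over all elements 32% were called higher and 28.1% lower in enok_KD, as compared with 36% higher and 32.5% lower in GFP_KD, so a call as such is common in this table. The median log2 ratio of the 4 entries was −1.12 in enok_KD and −1.79 in GFP_KD, against 0.044 and 0.14 over all tested elements. The split of calls over all elements followed the scaling. With factors from the cluster table, which moved the median of all elements by 0.76 in enok_KD and 0.79 in GFP_KD, 128 were higher and 18 lower in enok_KD and 128 higher and 26 lower in GFP_KD. The calls of 5S_DM, R1_DM and R1-2_DM kept their direction in both knockdowns under that scaling.

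R2B_DM, which the tables label as a member of the R2 family, was barely covered. It had 8 and 7 H3K23ac reads and 1 and 3 H3 reads in enok_KD, and 11 and 5 H3K23ac reads and 4 and 6 H3 reads in GFP_KD. Summed over replicates, its log2 ratio was 2.73 in enok_KD (exact 95% binomial interval 1.08 to 4.78) and 1.57 in GFP_KD (0.34 to 2.88). These intervals cover counting error only, and they overlap, so a difference between the knockdowns was not detectable at this depth. Both lie above 0, unlike the values of R2_DM.

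**Figure D1:**
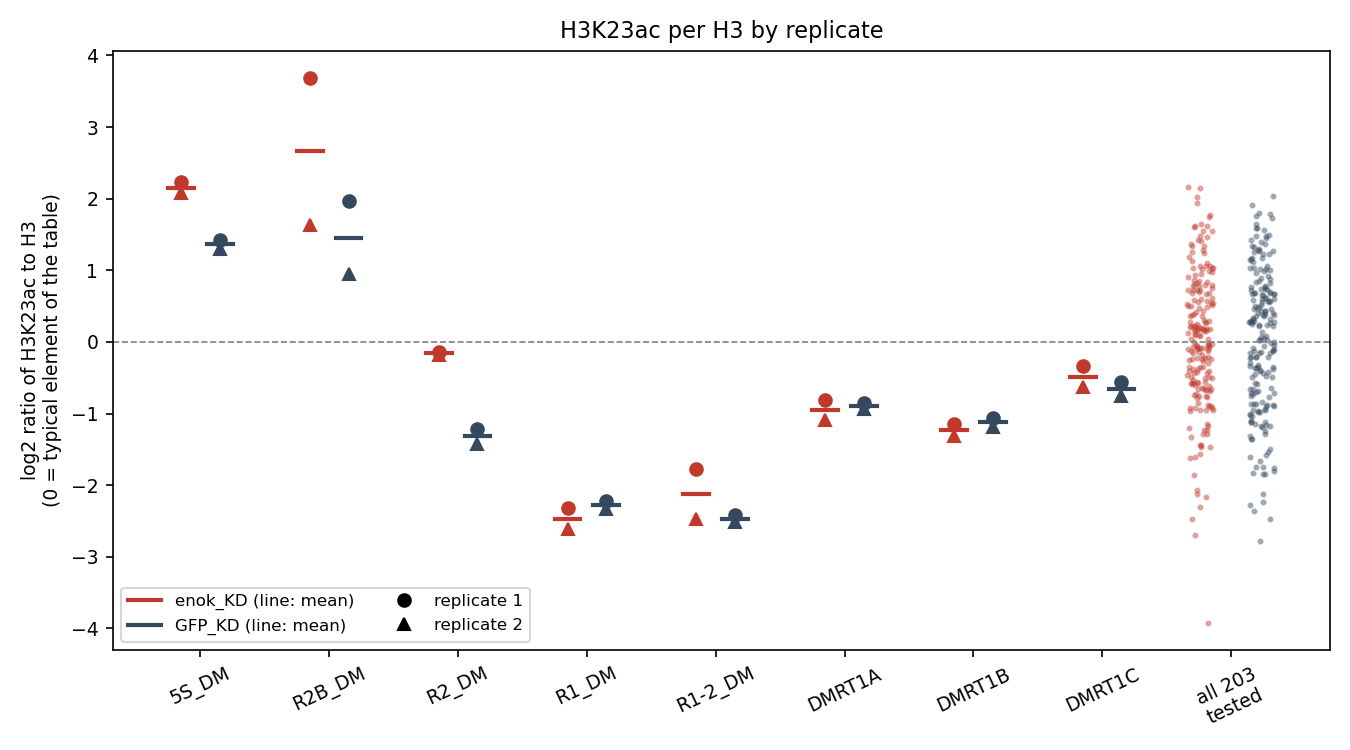
Log2 ratio of H3K23ac to H3 (vertical axis; 0 is the typical element) for each replicate of enok_KD (red) and GFP_KD (dark blue), with lines at the mean, and on the right 1 point for the mean of each of the 203 tested elements. H3K23ac and H3 libraries of the same number are joined. R2_DM lies at −0.16 in enok_KD and −1.32 in GFP_KD, while R1_DM lies at −2.47 and −2.27.

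As a comparison, DMRT1A, DMRT1B and DMRT1C were taken, the RT1 elements that the tables place in the R1 family under other names. Their log2 ratios were −0.95, −1.23 and −0.49 in enok_KD and −0.89, −1.12 and −0.66 in GFP_KD. All 3 lay above R1_DM and R1-2_DM in both knockdowns. The remaining 31 tested LINEs that are not telomeric had a fitted median log2 ratio of −0.18 in enok_KD, with a range of −1.86 to 1.504, and of −0.32 in GFP_KD, with a range of −1.80 to 1.77. R1_DM and R1-2_DM were thus below each of these LINEs in both knockdowns, and R2_DM was within their range. These are descriptions, and differences between elements were not tested.

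The second question was whether H3K23ac per H3 changed at these loci upon enok knockdown. Scaling sets the typical element near 0 here too, so a change shared by all elements cannot be seen. Each increase or decrease below, also of 1 antibody alone, is thus relative to the typical element and not absolute. In the fit of all libraries by group, none of the 4 tested entries passed an adjusted p-value of 0.05 with edgeR, and neither did any other element (0% of 203). Before adjustment 29 elements, or 14.3%, had a p-value under 0.05, and 2 of the 4 entries, R2_DM and 5S_DM, were among them. DESeq2 called 5 elements and limma voom called 5, R2_DM among them each time. The median log2 fold change of the 4 entries was 0.59, against 0.052 over all tested elements. The 4 entries were unlike each other, from −0.16 at R1_DM to 1.16 at R2_DM, so this median does not describe a shared rise.

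R2_DM had the largest fitted increase of the ratio of all 203 elements, with a log2 fold change of 1.16 ± 0.29 (SE), a fold of 2.23. Its adjusted p-value was 0.129 with edgeR, and the unadjusted one was 0.00316. Both enok_KD ratios, −0.14 and −0.18, lay above both GFP_KD ratios, −1.21 and −1.43, which in this direction was so at 37.9% of all elements. These ratios join libraries by their replicate number. When each H3K23ac library was joined with each H3 library of its knockdown, the ratio ran from −0.64 to 0.32 in enok_KD and from −1.43 to −1.21 in GFP_KD, and the knockdowns still did not overlap, which was so in this direction at 22.7% of all elements. R2_DM passed with DESeq2 (log2 fold change 1.20, DESeq2 adjusted p = 0.024) and with limma voom and group quality weights (1.16, limma adjusted p = 0.0362). The 8 fits that each left out 1 library gave log2 fold changes of 0.90 to 1.41, with 1.40 without the second H3K23ac library of enok_KD.

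At 5S_DM the ratio had a fitted change of 0.80 ± 0.27 on the log2 scale (SE, edgeR adjusted p = 0.233), number 7 from the top of all elements. Its ratios were 2.23 and 2.07 in enok_KD, above those of 1.42 and 1.30 in GFP_KD, as at 37.9% of all elements. With every joining of libraries the range was 1.75 to 2.55 in enok_KD and 1.22 to 1.503 in GFP_KD. It was again without overlap, as in this direction at 22.7% of all elements. The fitted change was 1.03 without the second H3K23ac library of enok_KD. With DESeq2 or voom on all libraries it did not pass.

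The R1 entries did not show a shift beyond the spread of the replicates. The ratio of R1_DM was −2.31 and −2.62 in enok_KD, overlapping with −2.22 and −2.33 in GFP_KD, and its log2 fold change was −0.16 ± 0.34 (SE, 95% interval −0.94 to 0.61, edgeR adjusted p = 0.831). It became 0.079 without the first H3 library and 0.17 without the second H3K23ac library of enok_KD, and −0.37 without both libraries of enok_KD replicate 1. The ratio of R1-2_DM was −1.77 and −2.47 in enok_KD and −2.41 and −2.52 in GFP_KD, with a log2 fold change of 0.39 ± 0.51 (SE, 95% interval −0.77 to 1.54, edgeR adjusted p = 0.691). It became −0.37 without the first H3K23ac library of enok_KD, and 0.76 without both libraries of enok_KD replicate 2. Both intervals include changes in either direction.

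Among the comparison elements, DMRT1A, DMRT1B and DMRT1C had log2 fold changes of −0.029, −0.088 and 0.20, and in all 3 the replicates of the knockdowns overlapped. The other 31 LINEs had a median of 0.24 and a maximum of 0.54, below the values of both R2_DM and 5S_DM. The 5 elements of class Satellite ran the other way, with a median of −0.93 and none above 0.

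**Figure D2:**
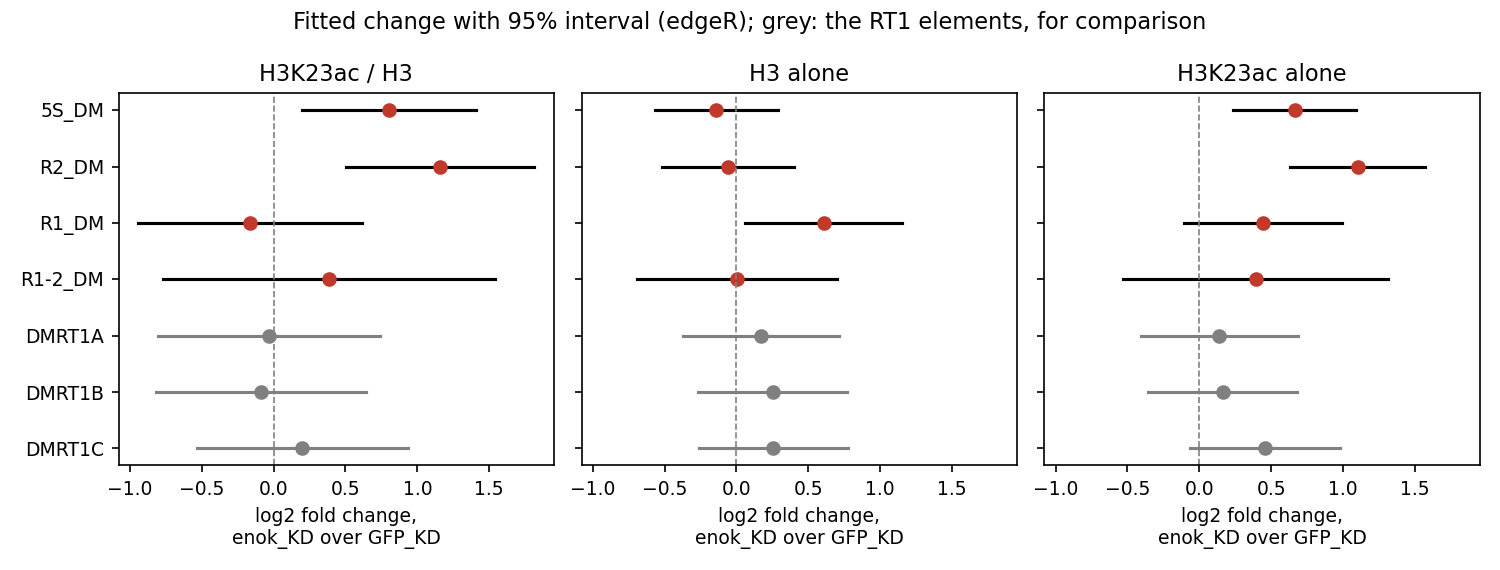
Fitted log2 fold change in enok_KD over GFP_KD (horizontal axis, point) with its 95% interval (line) for the ratio of H3K23ac to H3, for H3 alone and for H3K23ac alone. The ratio is 1.16 for R2_DM and 0.80 for 5S_DM, while the change of H3 is −0.059 and −0.14.

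A change of the ratio can come from either antibody, so each was examined on its own. Levels are given as CPM, the usual read count per unit of library size, where the library size is the total of the table scaled by its TMM factor.

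For R2_DM the H3K23ac level was 6217 and 4414 CPM in enok_KD, as compared with 2602 and 2345 in GFP_KD. Both enok_KD libraries were higher, which was so at 30.5% of all elements. The log2 fold change of 1.10 ± 0.21 (SE) was the largest of the 203 elements and had the lowest p-value of the table, 0.000533 unadjusted and 0.108 after adjustment with edgeR. It passed with DESeq2 (1.05, DESeq2 adjusted p = 0.000653) and with voom (1.08, limma adjusted p = 0.0093). The H3 level of R2_DM was 6865 and 4986 in enok_KD and 6023 and 6322 in GFP_KD. The enok_KD libraries lay on either side of the control, and the log2 fold change of H3 was −0.059 ± 0.20 (SE, edgeR adjusted p = 0.844), which became 0.070 without the second H3 library of enok_KD. Without both libraries of enok_KD replicate 1, the H3 change was −0.31.

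5S_DM showed the same form with a smaller size. Its H3K23ac level was 16672 and 11941 in enok_KD and 8782 and 9286 in GFP_KD, with both enok_KD libraries higher, as at 30.5% of all elements. The log2 fold change was 0.66 ± 0.19 (SE, edgeR adjusted p = 0.165), number 5 from the top of all elements. It was 0.89 without the second H3K23ac library of enok_KD. Its H3 level was 3550 and 2837 in enok_KD and 3276 and 3761 in GFP_KD, with overlap. H3 changed by −0.14 ± 0.19 on the log2 scale (SE, edgeR adjusted p = 0.659), and by −0.32 without both libraries of enok_KD replicate 1.

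R1_DM differed in that its H3 level was the one that separated the knockdowns. H3 was 99824 and 72904 in enok_KD and 55672 and 57812 in GFP_KD, with both enok_KD libraries higher, as at 37.4% of all elements. The log2 fold change of H3 was 0.61 ± 0.24 (SE, edgeR adjusted p = 0.138), and 0.36 without the first H3 library of enok_KD. Without both libraries of enok_KD replicate 1 or 2 it was 0.36 and 0.73. The H3 change passed with voom (0.59, limma adjusted p = 0.014). It stayed at 0.60 when either H3K23ac library of enok_KD was left out, since this comparison is of H3 libraries only. Among the H3 reads assigned to the elements of the table, R1_DM made up 9.14% and 7.17% in enok_KD and 6.05% and 6.39% in GFP_KD. Counting error alone was small here, with Wilson 95% intervals of 9.06 to 9.23% and 7.09 to 7.25% in enok_KD and of 5.99 to 6.11% and 6.33 to 6.45% in GFP_KD. Its H3K23ac level was 20083 and 11880 in enok_KD and 11989 and 11519 in GFP_KD, so that replicate 1 was high and replicate 2 within the control values (log2 fold change 0.44 ± 0.24 (SE), edgeR adjusted p = 0.444). Without the first H3K23ac library of enok_KD the change was 0.016. Without both libraries of enok_KD replicate 2 it was 0.76.

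R1-2_DM had 422 and 165 CPM of H3K23ac in enok_KD and 220 and 206 in GFP_KD. The enok_KD libraries lay above and below the control, with a log2 change (± SE) of 0.39 ± 0.41 (edgeR adjusted p = 0.689). This change became −0.37 without the first H3K23ac library of enok_KD, and 0.97 without both libraries of enok_KD replicate 2. The H3 level of R1-2_DM was 1447 and 927 in enok_KD and 1176 and 1192 in GFP_KD, again on both sides. Its log2 change (± SE) was 0.0043 ± 0.31 (edgeR adjusted p = 0.989). This became −0.21 with total counts as library sizes and −0.36 without both libraries of enok_KD replicate 1.

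**Figure D3:**
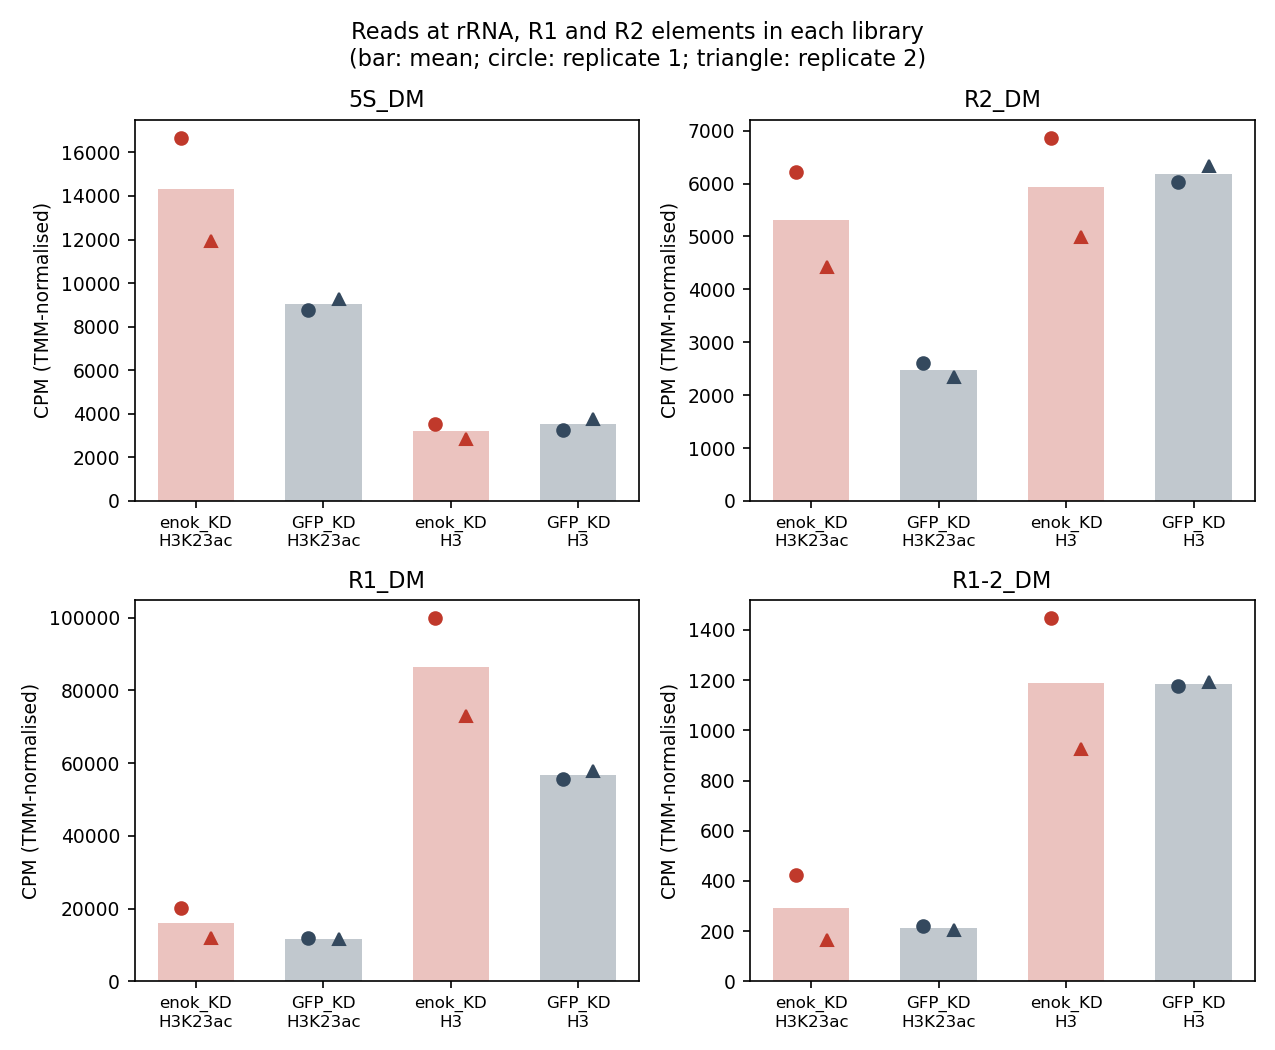
CPM after TMM scaling (vertical axes, starting at 0) of H3K23ac and H3 in each library of enok_KD (red) and GFP_KD (dark blue), with bars at the mean of 2 replicates. For R2_DM the H3K23ac values of 6217 and 4414 in enok_KD lie above 2602 and 2345 in GFP_KD, and for R1_DM the H3 values of 99824 and 72904 lie above 55672 and 57812.

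For H3K23ac alone 0 of the 4 entries and 0% of all elements passed with edgeR, while 2 of the 4 entries and 15.8% of all elements had an unadjusted p-value under 0.05. With DESeq2 4 elements and with voom 1 element passed, R2_DM among them each time. All 4 entries had a positive log2 fold change of H3K23ac, with a median of 0.55, against 142 of 203 elements and a median of 0.13 over the table. For R1_DM and R1-2_DM that sign rested on replicate 1 of enok_KD, without which the changes were −0.010 and −0.39. For H3 alone 0 of the 4 entries passed, as compared with 2.46% of all elements, or 5 elements, each with more H3 in enok_KD. Before adjustment 1 of the 4, R1_DM, had a p-value under 0.05, against 28.6% of all elements. Under total count scaling, which moved the median of all elements by −0.21, 6 elements were higher and 42 lower for H3.

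**Figure D4:**
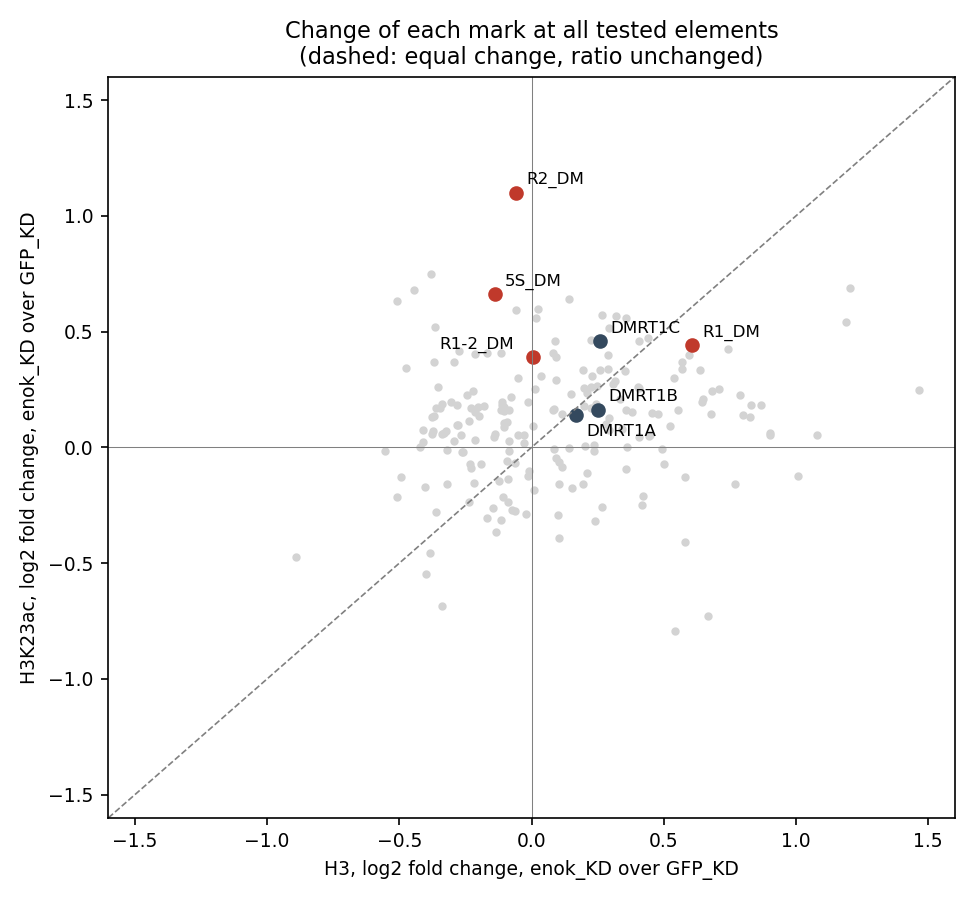
Log2 fold change of H3 (horizontal axis) and of H3K23ac (vertical axis) in enok_KD over GFP_KD for the 203 tested elements (grey), with 5S_DM, R2_DM, R1_DM and R1-2_DM in red and the RT1 elements in dark blue. R2_DM is the topmost point, at 1.10 for H3K23ac and −0.059 for H3, and R1_DM lies at 0.44 for H3K23ac and 0.61 for H3.

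Since scaling decides where 0 lies, the entries were also compared with each other inside each library, where no scaling enters. Ratios of counts between elements depend on their length and on how many of their copies can be told apart, so only their differences between libraries are read. How often quotients of other elements separate the knockdowns was not counted. For single elements, both enok_KD libraries lay above both GFP_KD libraries at 30.5% for H3K23ac and 37.4% for H3. A separation as such is therefore common. R2_DM reads per R1_DM read had a log2 value of −1.69 and −1.43 for H3K23ac in enok_KD, as compared with −2.20 and −2.30 in GFP_KD. For H3 it was −3.86 and −3.87 in enok_KD, as compared with −3.21 and −3.19 in GFP_KD. Relative to R1_DM, R2_DM was thus higher in H3K23ac by 0.69 and lower in H3 by 0.67 in enok_KD, without overlap of the replicates for either antibody. The fitted H3 change was 0.61 at R1_DM, the denominator, and −0.059 at R2_DM. The other quotients over R1_DM share this denominator, so their H3 differences are not separate observations. The H3 replicates of enok_KD, which differed by 0.45 at R1_DM and 0.46 at R2_DM, differed by less than 0.01 in this quotient.

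The same was done for the other entries. 5S_DM per R1_DM read had a log2 value of −0.27 and 0.0074 for H3K23ac in enok_KD and −0.45 and −0.31 in GFP_KD, and for H3 −4.81 and −4.68 in enok_KD and −4.09 and −3.94 in GFP_KD. The separation was clear for H3, whereas the H3K23ac replicates came within 0.05 of each other. 5S_DM per R2_DM read was 1.42 and 1.44 for H3K23ac in enok_KD, below 1.75 and 1.99 in GFP_KD, and overlapped for H3 (−0.95 and −0.81 in enok_KD, −0.88 and −0.75 in GFP_KD). R1-2_DM per R1_DM read was −5.57 and −6.17 for H3K23ac in enok_KD, on both sides of −5.77 and −5.80 in GFP_KD. For H3 it was −6.11 and −6.30 in enok_KD, lower than −5.57 and −5.60 in GFP_KD.

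The RT1 element DMRT1B served as a denominator from outside the group. R2_DM per DMRT1B read was −1.66 and −1.50 for H3K23ac in enok_KD and −2.51 and −2.56 in GFP_KD on the log2 scale, a difference of 0.96. For H3 it was −2.66 and −2.64 in enok_KD, below −2.36 and −2.32 in GFP_KD, a difference of −0.31. Relative to DMRT1B, R2_DM thus separated the knockdowns with both antibodies, in opposite directions. The fitted H3 change of DMRT1B itself was 0.25 ± 0.23 (SE), and it enters each quotient over DMRT1B. 5S_DM per DMRT1B read was −0.24 and −0.067 for H3K23ac in enok_KD, above −0.76 and −0.58 in GFP_KD. For H3 it was −3.61 and −3.45 in enok_KD, below −3.24 and −3.07 in GFP_KD. R1_DM per DMRT1B read was 0.032 and −0.074 for H3K23ac in enok_KD and −0.31 and −0.26 in GFP_KD. For H3 it was 1.20 and 1.23 in enok_KD and 0.85 and 0.88 in GFP_KD, so that this quotient was higher in enok_KD with both antibodies, by 0.27 for H3K23ac and 0.36 for H3.

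**Figure D5:**
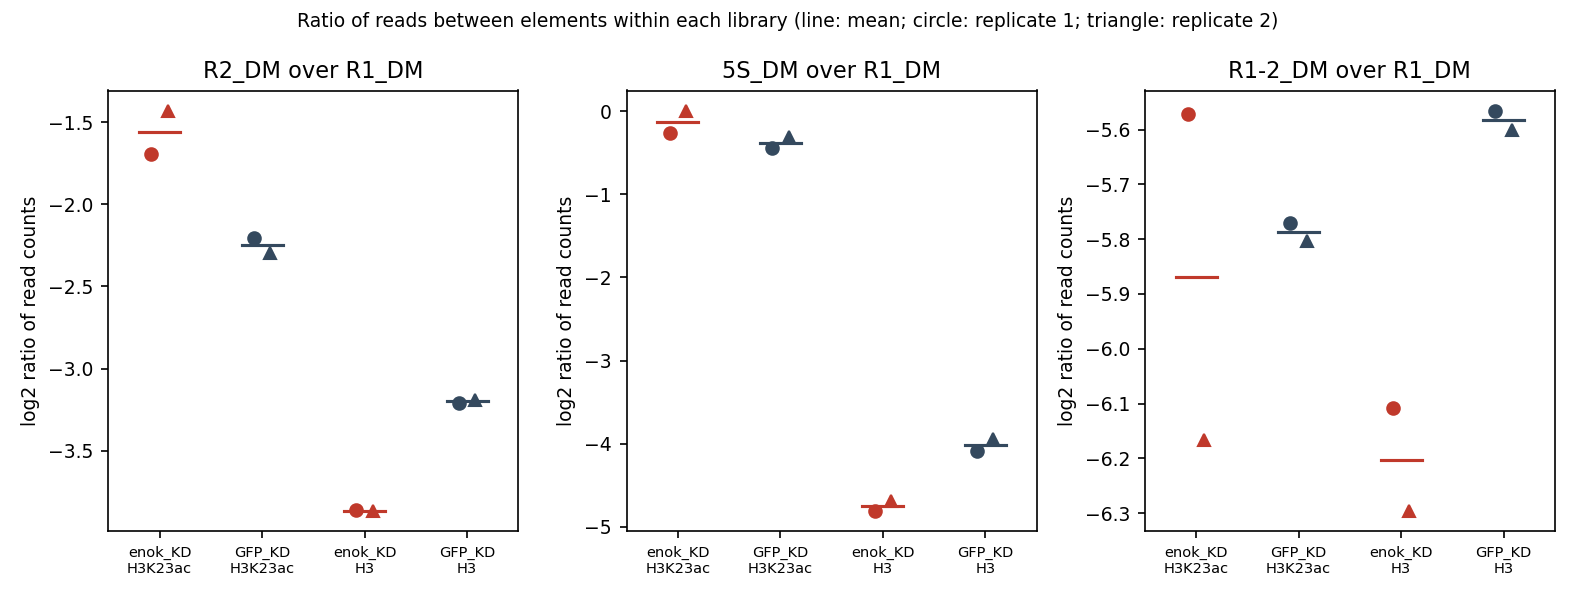
Log2 ratio of read counts of 2 elements within each library (vertical axes, which do not start at 0), for H3K23ac and H3 in enok_KD (red) and GFP_KD (dark blue), with lines at the mean of 2 replicates. R2_DM per R1_DM is −1.69 and −1.43 in enok_KD and −2.20 and −2.30 in GFP_KD for H3K23ac, and lies lower in enok_KD for H3.

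Finally, the elements with the most similar pattern over the 8 libraries were sought among the other 199 tested elements, by the root mean square difference of log2 normalised reads after each element was centred on its own mean. The nearest to R1_DM were NINJA_I (0.13), Gypsy8_I (0.15) and Gypsy8_LTR (0.17), and the same 3 were nearest to R1-2_DM (0.17, 0.23 and 0.24). NINJA_I is the internal part of a Pao retrotransposon and the Gypsy8 entries belong to a gypsy retrotransposon. The nearest to 5S_DM were the Tc1 entry of Rehavkus-1_DY (0.21), T412LTR (0.21) and P_DG (0.29). The nearest to R2_DM were Gypsy10_LTR (0.22), Gypsy6_I (0.25) and MAX_LTR (0.25). The median distance to all other elements was 1.29 for R1_DM, 1.27 for R1-2_DM, 0.91 for 5S_DM and 0.67 for R2_DM. No other LINE was among the 3 nearest to any of the 4 entries. The pattern includes the difference between H3K23ac and H3 given above, so this likeness is not a separate observation.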

How the data were processed

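The authors deposited whole-number read counts per transposon element and per piRNA cluster for each library, not normalised and not pooled. Per the study's methods and the submitters' processing notes, single-end reads were aligned to dm3 with Bowtie2 2.2.1 with 0 mismatches allowed, and uniquely mapped reads were kept. The repeat annotation and the treatment of duplicates are not given in the sources used here. Columns with the authors' own DESeq2 comparison of clusters were not used, and 0 columns of values were left without a library.

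Elements with a mean of at least 10 counts over 8 libraries (203 of 215) were fitted together with edgeR 4.0.16 (R 4.3.3; TMM factors 0.903 to 1.10; 4 group means; quasi-likelihood test). Benjamini-Hochberg adjustment covered all 203, and calls were made at 0.05. SEs and 95% intervals come from this fit, and log2 ratios per replicate use an offset of 0.5 reads. The biological coefficient of variation was 0.129. DESeq2 1.42.0, limma voom 3.58.1, other scalings and filters, a replicate block and fits that left out libraries were alternatives. Leaving out single libraries was chosen after seeing the data. The fit was also run on simulated data with known changes. There all groups had the same spread, unlike these libraries, so that run does not measure how reliable the calls are here. All entries that match the name rule are named, and the 3 most alike elements were chosen by a fixed rule. The members and lists were chosen with earlier results of these data known.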

Additional observations from a re-analysis of the deposited data

How the results depend on the processing

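The direction of the ratio change of R2_DM and 5S_DM was kept in all 21 alternatives. Over 9 processing alternatives the log2 fold change ran from 1.12 to 1.21 at R2_DM and from 0.76 to 0.85 at 5S_DM. Same-numbered libraries were not treated as pairs, since the deviations of H3K23ac and H3 correlated at 0.70 in enok_KD but at −0.020 in GFP_KD. With a replicate block, R2_DM (1.16, edgeR adjusted p = 2.77e-15) and 5S_DM (0.79, 2.05e-08) passed, and R1_DM and R1-2_DM did not. The number of elements called for the ratio was then 65, as compared with 0 without the block, and it was 5 with DESeq2 and 5 with voom. For H3 alone, 5 elements were called, as compared with 2 with DESeq2 size factors, 48 under total counts, 3 with factors from the cluster table, 0 with a mean of at least 100, 26 with DESeq2 and 23 with voom. For H3K23ac alone it was 4 with DESeq2, 1 with voom and 1 (R2_DM) with a replicate block.

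The H3 change of R1-2_DM, 0.0043, was −0.084 with DESeq2 size factors, −0.21 under total counts, −0.048 with factors from the cluster table, −0.071 with a mean of at least 100, −0.0013 without a filter, −0.083 with DESeq2, −0.030 with voom and −0.043 with a replicate block. The ratio of R2_DM in enok_KD was 0.59 with factors from the cluster table, and was then called higher (edgeR adjusted p = 0.0167).

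Fits that left out 1 replicate number of a knockdown, or 1 library, called 0 to 78 elements for the ratio, 0 to 114 for H3, 0 to 79 for H3K23ac, 97 to 144 for the ratio in enok_KD and 64 to 175 for the ratio in GFP_KD. The largest of these counts came without a replicate of enok_KD, where the lone library was assumed to vary like the other groups. R2_DM and 5S_DM passed for the ratio and for H3K23ac without either replicate of enok_KD, and in no fit that left out a GFP_KD library. Over these fits the log2 change of the ratio was 0.90 to 1.41 at R2_DM, 0.55 to 1.03 at 5S_DM, −0.37 to 0.99 at R1-2_DM and −0.59 to 0.17 at R1_DM. The H3 change was −0.36 to 0.21 at R1-2_DM, −0.31 to 0.070 at R2_DM, 0.36 to 0.73 at R1_DM and −0.37 to −0.033 at 5S_DM. The H3K23ac change was −0.39 to 0.99 at R1-2_DM, −0.010 to 0.78 at R1_DM, 0.81 to 1.33 at R2_DM and 0.38 to 0.89 at 5S_DM. The ratio of R2_DM in enok_KD was −0.45 to 0.078. R2B_DM, with 45 reads in all, was below the minimum mean of 10.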
